A study of Mus musculus with 54 samples.

Results

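The genes described here are 39 interferon-stimulated genes of the mouse, listed by name. The list was chosen with earlier results of these data known, so it is not independent of them. They comprise 3 sensors of foreign nucleic acid, 4 transcription factors, 20 antiviral effectors or regulators, 7 GTPases and 5 genes of antigen processing. Each was found once among the 48059 named entries of the mRNA table and once among the 27998 genes of the single-cell matrices. Of the 54 samples of the series, 20 are used.

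The study profiled the mouse small intestine, and 2 of its experiments carry these genes. In the first, crypt cells of strain C57BL/6J with low fluorescence from a Sox9-EGFP reporter, the gate used for crypt stem and progenitor cells, were collected by flow sorting and sequenced as 16 mRNA libraries: 4 from mice on a chow diet, 4 from mice on a high fat diet, 4 from germ-free mice and 4 from conventionalized mice (germ-free animals given a microbiota, as the term is commonly used). In the second, single intestinal cells of 12-month-old mice, whose strain is written C57BL6/2J, came from wild type animals and from animals lacking the microRNA miR-375, with 1 sample per genotype in each of 2 sets. The labels give no age for the sorted-cell mice, no diet or colonization time, and no statement that a library is a single animal, so the p-values measure the spread between these libraries, which may be partly technical. In bulk libraries, fewer cells of a type and less RNA per cell cannot be told apart.

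Interferons are secreted proteins that warn cells of infection. Type I and type III interferons act through the kinases Jak1 and Tyk2 on a complex that holds Stat2 and Irf9, while the response to interferon gamma makes wide use of Irf1. The induced genes recognize foreign nucleic acid, block viral replication, attack the vacuoles of intracellular pathogens, and feed peptides to class I molecules at the cell surface. In the gut epithelium a low level of this program is present without infection and is tuned by the microbiota.

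The windows around the start sites of a few members are printed because the roles differed in how often they held the letters that the interferon-activated complexes are known to bind. RefSeq windows (GRCm38.p6, 300 bases, 250 before the start and 50 after it) were found for 31 of the 39 genes. The letters GAAANNGAAA on either strand, the core of the interferon-stimulated response element, occurred in 18 of these 31 genes (19 of their 36 windows), against 3.44% of all 32851 windows in the table. The letters TTCNNNGAA, the gamma-activated sequence, which reads the same on both strands, occurred in 9 of the 31 genes (9 windows), against 8.3% of all windows. The 2 patterns were searched apart, and their matches may share bases. No window was matched for Zbp1, Oas2, Usp18, Rtp4, Ifi27, Parp14, Iigp1 and Tap2. By role, the first pattern was present in 6 of 6 GTPases, 2 of 2 sensors, 9 of 15 effectors, 1 of 4 transcription factors and 0 of 4 antigen processing genes with a window. A match is a description of letters, not of a bound site. The windows below run 5′ to 3′ along the gene's strand, with the first pattern in capitals.

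Isg15 (chr4:156200769-156201068, minus strand), a ubiquitin-like modifier, holds 3 overlapping matches, and Ifit1 (chr19:34640639-34640938, plus strand), which binds foreign RNA caps, holds 2.
Isg15: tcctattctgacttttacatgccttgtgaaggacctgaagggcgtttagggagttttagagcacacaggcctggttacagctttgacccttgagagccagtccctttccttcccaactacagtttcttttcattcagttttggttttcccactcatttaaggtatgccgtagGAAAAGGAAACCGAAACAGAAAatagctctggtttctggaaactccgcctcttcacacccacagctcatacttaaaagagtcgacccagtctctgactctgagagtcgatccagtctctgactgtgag
Ifit1: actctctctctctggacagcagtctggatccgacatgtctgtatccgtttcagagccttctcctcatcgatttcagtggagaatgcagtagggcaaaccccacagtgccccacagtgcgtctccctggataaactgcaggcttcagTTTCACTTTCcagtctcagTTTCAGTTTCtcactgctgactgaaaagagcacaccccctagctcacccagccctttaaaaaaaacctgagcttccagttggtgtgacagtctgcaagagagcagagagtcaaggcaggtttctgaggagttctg

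Igtp (chr11:58199306-58199605, plus strand) and Irgm2 (chr11:58214727-58215026, plus strand), immunity-related GTPases, share an identical run of 61 bases, which lies downstream of the match. Gbp2 (chr3:142620413-142620712, plus strand), a guanylate-binding protein, holds 1 match.
Igtp: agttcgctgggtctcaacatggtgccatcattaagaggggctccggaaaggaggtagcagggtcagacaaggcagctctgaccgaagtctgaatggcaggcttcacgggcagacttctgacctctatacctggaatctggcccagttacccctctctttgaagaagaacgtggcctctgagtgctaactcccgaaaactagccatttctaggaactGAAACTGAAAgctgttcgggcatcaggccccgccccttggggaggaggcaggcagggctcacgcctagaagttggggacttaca
Irgm2: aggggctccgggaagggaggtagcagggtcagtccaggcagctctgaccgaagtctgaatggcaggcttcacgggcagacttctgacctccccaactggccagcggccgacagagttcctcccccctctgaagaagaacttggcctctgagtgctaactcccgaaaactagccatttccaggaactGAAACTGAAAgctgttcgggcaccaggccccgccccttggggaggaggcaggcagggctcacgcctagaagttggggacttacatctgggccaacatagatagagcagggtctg
Gbp2: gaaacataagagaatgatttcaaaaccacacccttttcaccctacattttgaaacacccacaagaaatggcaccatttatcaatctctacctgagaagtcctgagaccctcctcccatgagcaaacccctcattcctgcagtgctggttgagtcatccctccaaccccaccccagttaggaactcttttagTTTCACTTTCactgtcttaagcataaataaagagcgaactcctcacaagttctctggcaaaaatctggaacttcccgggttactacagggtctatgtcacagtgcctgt

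Oasl2 (chr5:114896684-114896983, plus strand), of the oligoadenylate synthetase family, and Tap1 (chr17:34187306-34187605, plus strand), a subunit of the peptide transporter of antigen presentation, hold no match in this window.
Oasl2: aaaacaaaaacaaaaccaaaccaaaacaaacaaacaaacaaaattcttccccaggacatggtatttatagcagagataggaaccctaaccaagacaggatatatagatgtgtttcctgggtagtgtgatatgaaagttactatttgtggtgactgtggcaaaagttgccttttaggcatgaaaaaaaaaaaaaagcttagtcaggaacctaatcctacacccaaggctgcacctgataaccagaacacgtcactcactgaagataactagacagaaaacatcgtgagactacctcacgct
Tap1: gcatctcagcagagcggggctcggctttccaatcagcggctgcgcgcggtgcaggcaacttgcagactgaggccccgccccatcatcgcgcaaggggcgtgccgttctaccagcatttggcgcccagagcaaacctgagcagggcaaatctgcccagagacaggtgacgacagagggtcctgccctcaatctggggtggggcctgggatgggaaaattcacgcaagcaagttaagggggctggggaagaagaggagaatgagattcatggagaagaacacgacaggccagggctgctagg

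The libraries were first checked against their labels. Normalized counts summed to between 10680267 and 19117886 per mRNA library, and the smallest whole steps of the values put the depth between about 6824221 and 21804569 reads, lowest in germ-free replicate 3. Sox9 lay between 2146 and 6705 normalized counts and the stem cell gene Lgr5 between 378 and 5167, while the T cell gene Cd3e did not exceed 17.5. The leukocyte gene Ptprc lay between 22.4 and 328, highest in germ-free replicate 3. T lymphocyte markers summed to between 11.4 and 339 and stromal or endothelial markers to between 24.1 and 802, so some non-epithelial RNA was present. Mir375 was listed at 0 in all 16 mRNA libraries and has no entry in the matrices, so the knockout itself could not be checked. The single-cell samples held 1177 and 1230 Epcam-positive cells (wild type and knockout, set 1) and 2205 and 2691 (set 2), with median depths of 16404, 16017, 21939 and 16051 UMIs (unique molecules). Wild type and knockout shared 1 cell barcode in set 1 and 12 in set 2.

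Some members are read with caution. Ifit3 and Ifit3b, Ifit1 and Ifit1bl1, Igtp and Irgm2, and the Oas and Gbp families are close copies between which reads can be split. In the GENCODE vM21 annotation, Irgm2 overlaps Igtp and Irf9 overlaps Rnf31 on the same strand. Rtp4, Gbp7 and Parp14 likewise overlap Gm45338, Gm43802 and Gm49730. Overlaps on the opposite strand include Tap1 with Psmb9, Irf7 with Phrf1, Rtp4 with Masp1, Oas2 with Gm43068 and Usp18 with Gm44148. There reads cannot be told apart without strand.

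High fat diet was compared with chow to ask how diet bears on these genes in crypt cells. Levels were lower on high fat diet for 38 of the 39 genes, the exception being Ifit2, an RNA-binding effector, at 0.58 (SE 0.51, limma adjusted p = 0.513). The median difference was -0.93 on the log2(normalized count + 1) scale, against 0.05 over the 16421 genes tested. By limma with Benjamini-Hochberg adjustment over all genes, 5 members fell and 0 rose, where 0.615% of all genes were called lower. At an unadjusted p under 0.05 there were 24 of the 39 members and 4383 of all genes. In 17 members every high fat library lay below every chow library, an order that 7.36% of all genes showed.

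**Figure D1:**
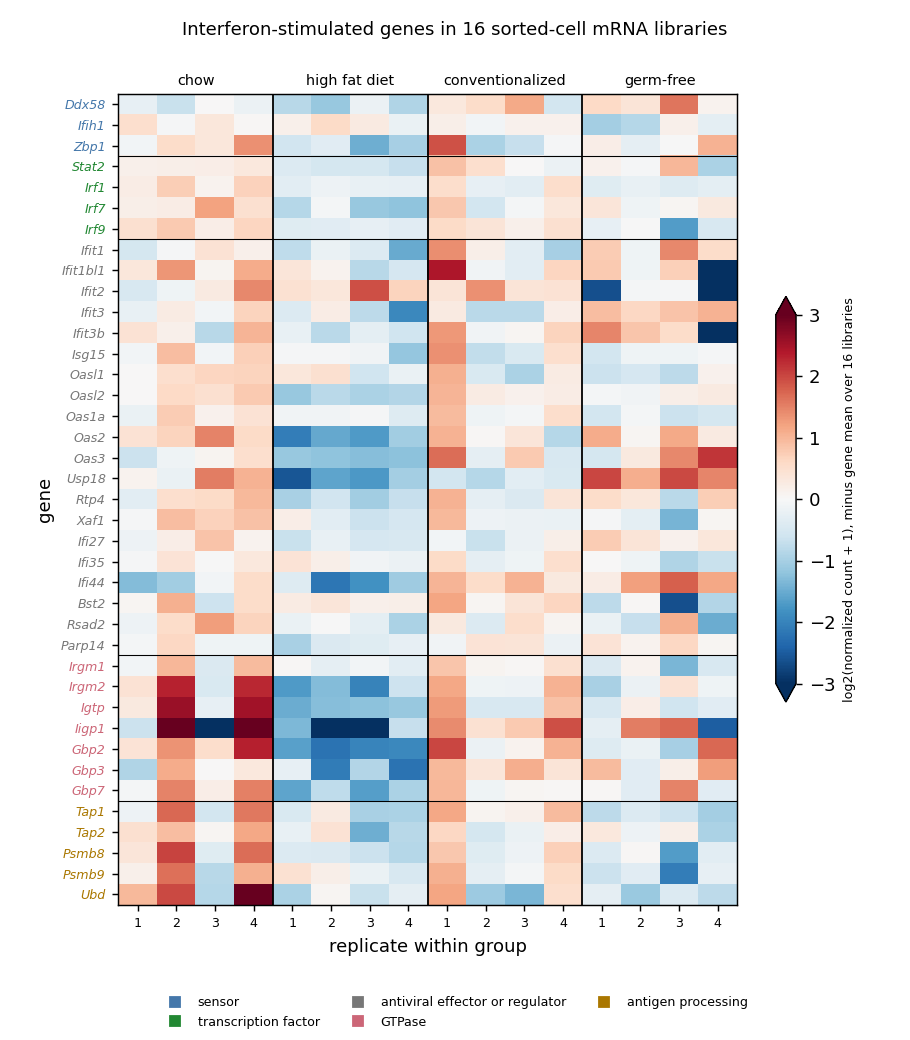
Heat map of the 39 genes (rows, names coloured by role) in the 16 mRNA libraries (columns, by group and replicate); colour is log2(normalized count + 1) minus the gene's mean over the 16 libraries, clipped at -3 and 3. The high fat diet columns are mostly blue, and within chow the GTPases and antigen processing genes are red in replicates 2 and 4.

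Gbp2 fell most among the members called. It was measured at 27.3, 52.4, 29.4 and 106 normalized counts in chow replicates 1 to 4 and at 5.82, 3.57, 4.40 and 4.53 on high fat diet. The lowest chow library thus stood above the highest high fat library, and the difference was -3.09 (SE 0.49, n = 4 each, limma adjusted p = 0.0371). The gene lies at chromosome 3, 142620602 to 142638008 (ENSMUSG00000028270).

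Oas2, which makes the 2′-5′ oligoadenylate that activates RNase L, gave 76.1, 90.0, 161 and 84.6 on chow and 12.7, 18.9, 16.7 and 26.7 on high fat diet. Its relative Oasl2 gave 454, 673, 619 and 765 on chow and 204, 254, 229 and 243.1 on high fat diet. Neither gene's groups overlapped, and the log2 differences were -2.38 (SE 0.34, limma adjusted p = 0.0371) and -1.41 (SE 0.18, limma adjusted p = 0.0284). Oas2 (ENSMUSG00000032690) lies at chromosome 5, 120730333 to 120749853, and Oasl2 (ENSMUSG00000029561) at chromosome 5, 114896936 to 114912234.

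Usp18, the protease that removes Isg15 from its targets and damps the type I receptor, gave 385, 312, 1030.2 and 741 normalized counts on chow and 59.8, 119, 107 and 176 on high fat diet. The chow libraries ranged widely but all stood above the high fat libraries. The difference was -2.34 (SE 0.42, limma adjusted p = 0.0419). Usp18 (ENSMUSG00000030107) lies at chromosome 6, 121245906 to 121270917.

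Irf9, the DNA-binding subunit of the type I interferon complex, was the transcription factor that fell, from 574, 706, 474 and 636 on chow to 318, 322, 347 and 326. Its difference was -0.85 (SE 0.15, limma adjusted p = 0.0389), and it lies at chromosome 14, 55603571 to 55610030 (ENSMUSG00000002325). Its partner Stat2 gave 214, 219, 221 and 240.7 on chow and 144, 133, 133 and 120 on high fat diet, also without overlap, but did not pass the test (-0.75, SE 0.15, limma adjusted p = 0.0552). Irf7, which amplifies type I interferon, had a difference of -1.33 (limma adjusted p = 0.0632) and Irf1, the interferon gamma factor, -0.68 (limma adjusted p = 0.0765), both without overlap.

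Outside the effectors and Irf9, Gbp2 was the member called. Of the 7 GTPases all had lower means on high fat diet, from -0.51 for Irgm1 to -3.29 (SE 1.63, limma adjusted p = 0.229) for Iigp1. Igtp was at -2.57 (SE 0.59, limma adjusted p = 0.0703), Irgm2 at -2.54 (adjusted p = 0.0755) and Gbp7 at -2.01 (adjusted p = 0.0605). The 5 antigen processing genes lay between -0.53 for Psmb9, an immunoproteasome subunit, and -1.76 for Ubd, a ubiquitin-like tag, with 0 called. Among sensors, Zbp1, which senses Z-form nucleic acid, was at -1.39 (adjusted p = 0.0827), Ddx58, the RNA helicase RIG-I, at -0.49 and Ifih1, its relative MDA5, at -0.01. The 20 effectors had a median of -0.80 with 3 called.

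These 5 calls rest on the full set of libraries. Without chow replicate 1, chow replicate 4 or any single one of the high fat libraries 1, 2, 3 and 4 there were 0 members called, and 0 of all genes in each of these refits. Without chow replicate 2 there were 13 members called lower, with 1148 of all genes called lower and 1442 higher. Without chow replicate 3 there were 6, with 45 of all genes lower and 24 higher. The library codes in the labels fall in 2 runs of 4, each with 2 libraries per diet. Paneth cell markers split by run on chow, at 573430 and 437980 in the lower run and 102430 and 57304 in the higher. On high fat diet they were 559350 and 699750 against 218940 and 211280. The lower run alone (replicates 1 and 2) gave a median of the members of -0.66 with 0 called and the higher (replicates 3 and 4) -1.40 with 3. T lymphocyte markers moved the same way, their sum lying between 65.4 and 179 normalized counts on chow and between 11.4 and 18.5 on high fat diet, and tuft cell markers lay between 8218 and 19952 against 1058 and 4990. Of the 12 T lymphocyte markers, 2 reached the level tested, of which Ccl5 was called lower, and Nkg7 was listed at 0 in all 4 high fat libraries. All 7 tuft markers had lower means on high fat diet, and 4 were called (Trpm5, Avil, Pou2f3 and Il25). Enteroendocrine markers, all 8 with lower means on high fat diet and 0 called, summed to between 174040 and 794420 on chow and between 32838 and 131240 on high fat diet, without overlap. Other markers had higher means on high fat diet: 7 of 7 goblet (median 0.83), 7 of 7 cycling (0.60) and 5 of 6 Paneth markers (0.59), with 0 called. The part of these cell types in the result was not tested.

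**Figure D2:**
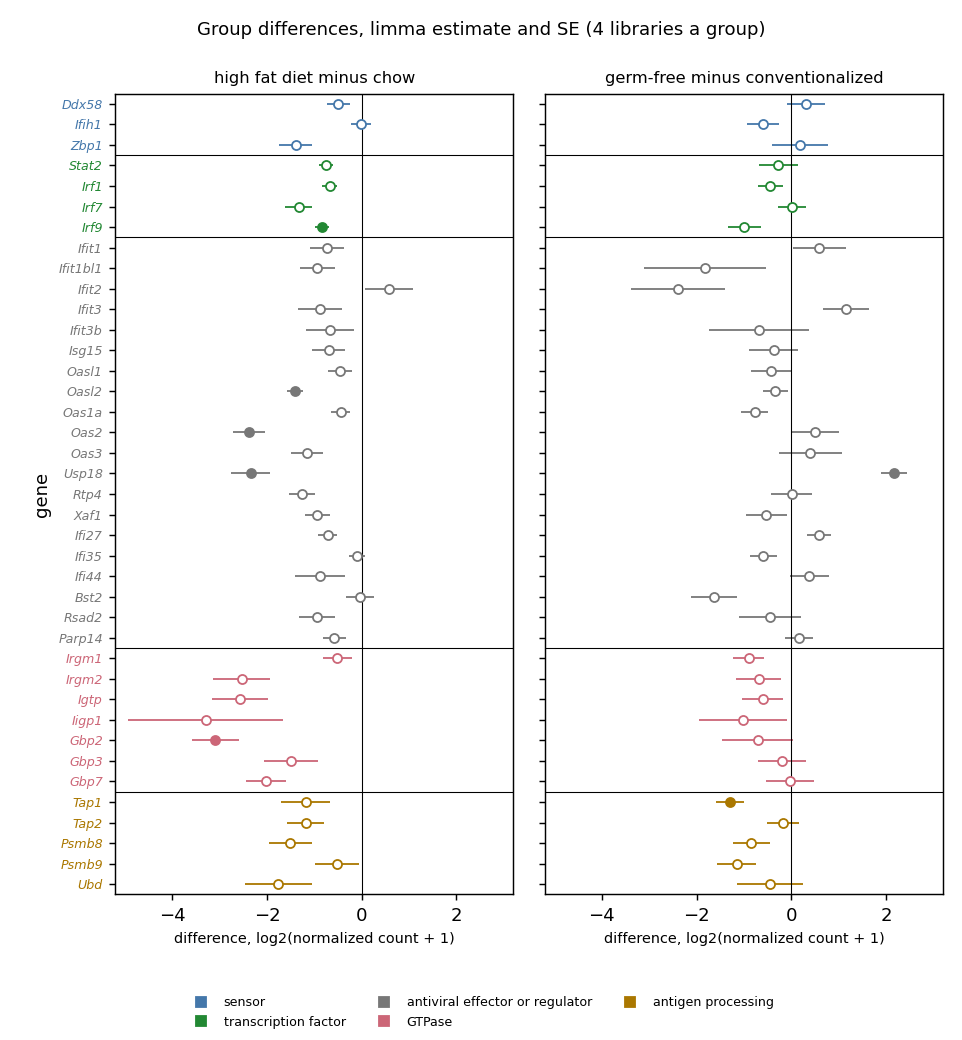
Difference in log2(normalized count + 1) for each gene (points, coloured by role) with its standard error (bars), for high fat diet minus chow (left) and germ-free minus conventionalized (right), 4 libraries a group; filled points passed limma's test at an adjusted p of 0.05. On the left 38 of the 39 points lie below 0, and on the right Usp18 stands alone far above 0.

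The chow libraries were not alike. In 23 of the 39 members replicates 2 and 4 both exceeded replicates 1 and 3, an order seen in 14.9% of all 16636 genes with a mean of at least 10 in the chow libraries. For 8 members the lower of the former was at least 2-fold above the higher of the latter, against 0.361% of all genes. These 8 were Irgm1, Irgm2, Igtp, Iigp1, Gbp7, Tap1, Psmb8 and Ubd, that is, GTPases and antigen processing genes.

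Igtp was measured at 240.9, 1188, 166 and 1127 normalized counts in chow replicates 1 to 4. Iigp1, another immunity-related GTPase, gave 6.57, 215, 0 and 187. Psmb8, the immunoproteasome subunit, gave 2947, 9349.5, 1773 and 7296. So replicates 2 and 4 lay several times above the others for each. The leukocyte gene Ptprc ran in the opposite order, at 116, 24.2, 233 and 28.1. So did the sum of B lymphocyte or plasma cell markers, at 66.1, 45.3, 78.5 and 41.1. Myeloid markers summed to 509, 564, 405 and 587, in the order of the split. T lymphocyte markers followed neither order, at 79.1, 179, 136 and 65.4. The part of leukocytes in the split was not tested.

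Usp18 did not share the split, with 385 and 1030.2 in replicates 1 and 3 and 312 and 741 in replicates 2 and 4. Irf7 gave 922, 947, 1871 and 1139 and Oas2 76.1, 90.0, 161 and 84.6, with replicate 3 the highest in each. With chow replicates 2 and 4 left out, a choice made after seeing these values, the median of the members between high fat diet and chow was -0.67 with 0 called.

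Germ-free mice were compared with conventionalized mice to ask how a microbiota bears on these genes. No common direction was seen: 27 of the 39 genes had lower and 12 higher means in germ-free mice, with a median of -0.44 against 0.11 over the 20214 genes tested. Without conventionalized replicate 1 the median was -0.13, with 23 genes lower and 16 higher. Usp18 rose and Tap1 fell; 1.95% of all genes were called higher and 0.292% lower. At an unadjusted p under 0.05 there were 11 members and 4072 of all genes. Without overlap between the groups, 4 members were lower (6.21% of all genes) and 2 higher (6.26% of all genes).

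Usp18 was measured at 244.01, 196, 288 and 258 normalized counts in conventionalized mice and at 1425, 759, 1420.0 and 987 in germ-free mice. Every germ-free library stood above every conventionalized library by more than 2-fold. The difference was 2.18 (SE 0.27, n = 4 each, limma adjusted p = 0.0129), and it lost its call only without germ-free replicate 1 (limma adjusted p = 0.0518), among 8 refits with a library removed each time.

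Tap1 gave 1025, 489, 510 and 894 in conventionalized mice and 266, 348, 301 and 226 in germ-free mice. The groups did not overlap, and the difference was -1.29 (SE 0.30, limma adjusted p = 0.0471). With a library removed each time, 1 of 8 refits still called it, and the call was lost with the replicate block (limma adjusted p = 0.0714), median-of-ratios scaling (limma adjusted p = 0.0590), quantile normalization (limma adjusted p = 0.0655) and all 4 groups in the fit (limma adjusted p = 0.0714). Tap1 (ENSMUSG00000037321) lies at chromosome 17, 34187553 to 34197225.

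Among the effectors the members diverged. Bst2, the tether that holds budding virus at the cell surface, gave 623, 287, 358 and 435 in conventionalized and 160, 282, 43.8 and 150 in germ-free mice, with a difference of -1.63 (SE 0.49, limma adjusted p = 0.113). Isg15 gave 184, 41.6, 51.3 and 101 against 48.1, 64.9, 64.2 and 69.3, so the groups overlapped (-0.37, adjusted p = 0.668). Ifit1 lay at 0.59 (adjusted p = 0.530), Ifit3, a partner of Ifit1, at 1.16 (adjusted p = 0.222), Ifi27, a mitochondrial protein, at 0.59 (adjusted p = 0.223) and Oasl2 at -0.34 (adjusted p = 0.448). Ifit2 had the lowest estimate, -2.40 (SE 0.99, adjusted p = 0.215), with germ-free values of 2.13, 17.8, 18.1 and 0, and Ifit1bl1 -1.82 (adjusted p = 0.403).

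None of the 4 transcription factors passed the test. Irf9 gave 608, 534, 452 and 570 in conventionalized and 347, 405, 127 and 295 in germ-free mice (-0.995, SE 0.35, limma adjusted p = 0.165). Irf1 gave 4144, 2444, 2307 and 4180 against 2233, 2490, 2201 and 2363 (-0.44, SE 0.27, limma adjusted p = 0.346), with overlap. Irf7 was at 0.01 (adjusted p = 0.983) and Stat2 at -0.27 (adjusted p = 0.704). The sensors Ddx58 and Zbp1 were at 0.31 (adjusted p = 0.651) and 0.18 (adjusted p = 0.865). All 7 GTPases and all 5 antigen processing genes had lower means in germ-free mice, with medians of -0.69 and -0.85. Of these, Igtp (-0.60, adjusted p = 0.409), Gbp2 (-0.70, adjusted p = 0.578), Psmb8 (-0.85, adjusted p = 0.247) and Ubd (-0.45, adjusted p = 0.706) did not pass the test.

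Other cell markers differed beside these values. Cycling markers summed to between 10623 and 13772 normalized counts in conventionalized and between 1677 and 6923 in germ-free mice, stem markers to between 59904 and 120320 and between 13031 and 68979, and stromal or endothelial markers to between 46.5 and 408 and between 345 and 802. Enteroendocrine markers, all 8 with higher means in germ-free mice and 3 of them called (Pax4, Neurod1 and Tph1), summed to between 65971 and 200070 in conventionalized and between 339400 and 744910 in germ-free mice, without overlap and in the direction of Usp18. Their part in the member values was not tested. Conventionalized replicate 1 held the highest level in its group for Isg15, Igtp, Psmb8 and Tap1, and its goblet cell markers summed to 599760 against at most 74866 in the other conventionalized libraries.

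Chow is shared as the control of high fat diet, conventionalized and germ-free mice, so these comparisons are not independent of each other. Library codes begin with BC on chow and high fat diet, CD in conventionalized and GF in germ-free mice. The labels do not say what these letters stand for. A difference between code series cannot be told apart from one between chow and the conventionalized or germ-free mice. Conventionalized mice against chow gave 0 members called by limma, where 0.0948% of 17941 genes were called, and 3 members and 2017 of all genes at an unadjusted p under 0.05. The median was -0.18, and it was -0.45 without conventionalized replicate 1, -0.35 without chow replicate 1, and between -0.07 and -0.05 without chow replicate 2 or 4 or conventionalized replicate 2 or 3. Usp18 was the member without overlap (lower, as were 4.38% of all genes), at -1.17 (SE 0.34, limma adjusted p = 0.251). The largest differences were for Ifi44 (1.19, limma adjusted p = 0.350), Ddx58 (0.63, limma adjusted p = 0.486) and Gbp3 (0.57, limma adjusted p = 0.645) upward, and for Ubd (-1.49, limma adjusted p = 0.508), Usp18 and Igtp (-0.998, limma adjusted p = 0.570) downward. Germ-free mice against chow likewise gave 0 members called and 0% of 19475 genes, with 18 members and 5346 of all genes at an unadjusted p under 0.05. The 18 became 4 without chow replicate 2, 8 without chow replicate 4 and 1 without both, where all genes numbered 3579, 4388 and 2300. In that comparison Irf1 (-0.75, SE 0.21, limma adjusted p = 0.0982) and Irf9 (-1.13, SE 0.35, limma adjusted p = 0.102) were lower without overlap, an order 5.2% of all genes showed, Ddx58 was higher without overlap, as were 13.1% of all genes, and the median of the members was -0.72. Ifi44 (1.57, limma adjusted p = 0.105), Usp18 (1.01, limma adjusted p = 0.133) and Ddx58 (0.94, limma adjusted p = 0.120) had the highest estimates, and Ifit2 (-2.02, limma adjusted p = 0.206), Ubd (-1.94, limma adjusted p = 0.135) and Ifit1bl1 (-1.87, limma adjusted p = 0.334) the lowest. Without chow replicates 2 and 4 the median in conventionalized mice became 0.19 and that in germ-free mice -0.32.

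For Usp18 the order of the group means was germ-free (1148 ± 330 normalized counts), chow (617 ± 333), conventionalized (247 ± 38.2) and high fat diet (115 ± 47.7; SD, n = 4 each), where germ-free and chow overlapped and the other neighbours did not. Enteroendocrine marker sums lay between 339400 and 744910, 174040 and 794420, 65971 and 200070, and 32838 and 131240 in these groups, and in chow replicates 1 to 4 were 256720, 174040, 794420 and 371200, the same order as Usp18. Their part in the Usp18 levels was not tested. For Igtp it was chow (680.5 ± 552), conventionalized (278 ± 166), germ-free (162 ± 43.3) and high fat diet (80.6 ± 8.26), and neighbours from chow to germ-free overlapped. Irf9 was highest on chow (598 ± 98.6) and in conventionalized mice (541 ± 66.5), which overlapped, and lower on high fat diet (328 ± 12.8) and in germ-free mice (294 ± 120), which also overlapped.

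The rest of the interferon pathway was read from further lists. Interferon genes themselves were barely present: Ifng was listed at 0 in all 16 libraries, and Ifnb1, the founding type I interferon, gave 4.65, 0, 4.00 and 4.88 on chow, 5.13, 11.7, 29.9 and 2.91 in conventionalized and 11.7, 18.1, 51.7 and 59.2 in germ-free mice. Germ-free values of Ifnb1 all exceeded chow values, but the difference did not pass the test (3.04, SE 0.83, limma adjusted p = 0.0982). Of the 9 receptor and kinase genes tested in each comparison, 0 were called in any. Of 11 sensing and adaptor genes and 11 other factors and inhibitors tested, 0 were called in any. Among other interferon-stimulated genes, Gbp8, a guanylate-binding protein, fell on high fat diet (-3.03, limma adjusted p = 0.0371) and rose in germ-free mice against conventionalized (2.33, limma adjusted p = 0.0358), alone of 32 and 35 tested. Among 13 class I genes, H2-D1, a class I heavy chain, fell on high fat diet (-1.23, SE 0.21, limma adjusted p = 0.0389).

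The knockout of miR-375 was examined in Epcam-positive cells, in each set apart. Levels are given as CPM, UMIs scaled to the sample's total over these cells. Members summed to 1150.2 CPM in wild type and 398 in knockout cells of set 1, and to 1566 and 1033 in set 2. Of the 39 genes 34 were lower in the knockout in both sets, the others being Ifit2, Ifi27, Iigp1, Gbp2 and Ubd, and for 32 the 95% interval for counting error lay below 0 in both. Of 14974 genes with a UMI in all 4 samples, 29% were lower in both sets and 6.1% had both intervals below 0. With 1 sample per genotype in a set there is no test within a set, and the intervals hold no variation between animals.

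Over both sets (2 samples against 2), with no term for the set, edgeR's quasi-likelihood test called 0 members, where 0% of 13404 genes were called. At an unadjusted p under 0.05 there were 18 of the 39 members and 96 of all genes. Without knockout sample 1 these were 6 and 144, without knockout sample 2 they were 26 and 267, and without wild type sample 1 they were 11 and 363. The fitted median was -1.001 on the log2 scale against 0.00 for all genes. Of the members 38 were lower, furthest for Ifi44 (-2.27), Ifit1bl1 (-2.05) and Rsad2 (-1.96), and 1 was higher, Ubd (0.10). Other interferon-stimulated genes had a median of -0.51 in the same fit, with 28 of 30 tested lower and 0 called. For other class I genes the median was -0.36, with 13 of 13 lower and 0 called. Every member's edgeR adjusted p was 1. DESeq2 called 1 member, Ifit1bl1 (-2.05, SE 0.33, DESeq2 adjusted p = 1.77e-06), among 6 genes in all. Without knockout sample 1 the median was -0.70, and without knockout sample 2 it was -1.56, so the size differed with the set left whole. With the set as a block edgeR's median was -1.12 and again 0 members were called. In that fit 22 members and 371 of all genes had an unadjusted p under 0.05.

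**Figure D3:**
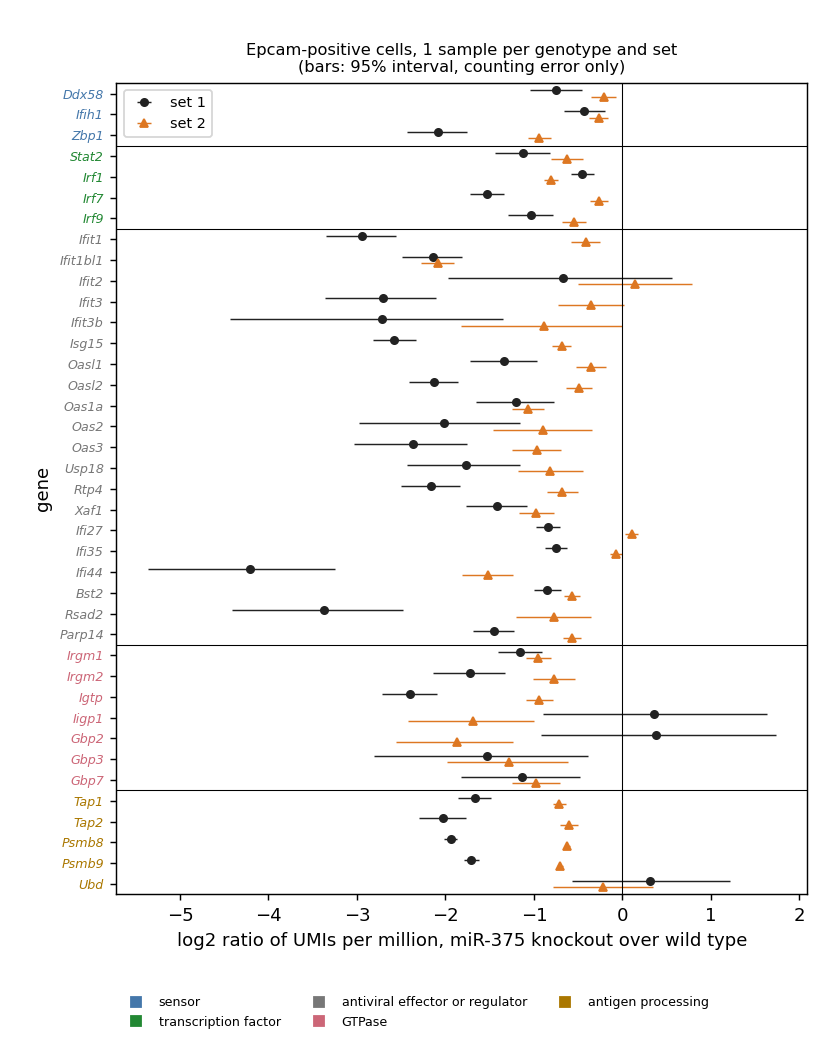
Log2 ratio of CPM, miR-375 knockout over wild type, in Epcam-positive cells for each gene (rows, names coloured by role), set 1 as circles and set 2 as triangles; bars are 95% intervals for counting error alone, with 1 sample per genotype and set. Most points of both sets lie below 0, and the set 1 ratio is lower than the set 2 ratio for 35 of the 39 genes.

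In set 1, 36 of the 39 genes were lower in the knockout and 29 at least 2-fold lower, where 4.04% of 15290 genes with a UMI in both samples were. In set 2, 37 were lower and 6 at least 2-fold lower, where 6.32% of 16611 genes were. At a mean of at least 10 CPM, which 19 members reached in set 1 and 22 in set 2, 14 and 2 were at least 2-fold lower, against 1.03% and 0.4% of all genes at that level. The medians of the members at that level were -1.67 and -0.59, against 0.02 and -0.13 for all genes.

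The largest differences in set 1 were among antiviral effectors. Ifi44, a cytoplasmic antiviral protein, had 167 UMIs (6.85 CPM) in wild type and 9 (0.37) in knockout cells, a log2 ratio of -4.21 (95% interval -5.36 to -3.25). In set 2 it had 405 (7.08) and 134 (2.46), a ratio of -1.52 (-1.82 to -1.24). Rsad2, the antiviral enzyme viperin, had ratios of -3.37 (-4.41 to -2.48) and -0.77 (-1.20 to -0.35) in sets 1 and 2. Both genes were thus lower in both sets, and more so in set 1.

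Isg15 had 40.2 CPM in wild type and 6.75 in knockout cells of set 1, and 33.3 and 20.7 in set 2. The ratios were -2.58 (-2.82 to -2.34) and -0.69 (-0.79 to -0.58). Ifit1 had 19.3 and 2.51 in set 1 and 12.3 and 9.25 in set 2. Ifit1bl1 had like ratios in both sets, with 16.7 and 3.79 in set 1 and 23.7 and 5.57 in set 2, ratios of -2.14 (-2.49 to -1.81) and -2.09 (-2.27 to -1.91).

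The immunoproteasome genes Psmb8 and Psmb9 had the most UMIs of the 39. Psmb8 had 336 CPM in wild type and 87.4 in knockout cells of set 1, and 537 and 349 in set 2. Psmb9 had 192 and 58.7 in set 1 and 313.7 and 192 in set 2, and Tap1 41.2 and 12.96, then 66.5 and 40.6. The ratios for Psmb8 were -1.94 (-2.01 to -1.87) and -0.62 (-0.65 to -0.60), so the set 1 ratio lay outside the interval of set 2.

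The ratios of the 4 transcription factors lay between -1.53 and -0.45 in set 1 and between -0.81 and -0.26 in set 2. Irf7 had 34.7 and 12.1 CPM in set 1 and 28.6 and 23.8 in set 2, ratios of -1.53 (-1.72 to -1.33) and -0.26 (-0.37 to -0.16). Irf1 had 49.6 and 36.2 in set 1 and 70.2 and 40.1 in set 2, ratios of -0.45 (-0.58 to -0.33) and -0.81 (-0.88 to -0.73). Irf1 was among the 4 genes whose ratio was not lower in set 1 than in set 2, with Iigp1, Gbp2 and Ubd. Gbp2 rested on few molecules in set 1, 10 in wild type and 13 in knockout cells, and 100 and 26 in set 2 (-1.87, -2.55 to -1.24). Ifi35 had 68.7 and 65.3 CPM in set 2 and 54.6 and 32.5 in set 1.

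Cell makeup differed between the samples. Enterocyte markers summed to 4015 CPM in wild type and 2406 in knockout cells of set 1, and to 4255 and 7141 in set 2. T lymphocyte markers went from 206 to 353 in set 1 and from 1484 to 773 in set 2, and Epcam-positive cells with a UMI of the leukocyte gene Ptprc from 3.82% to 4.80% and from 21.0% to 10.8%. With every Ptprc-positive cell removed the medians were -1.67 and -0.59. Ifng, the interferon gamma gene, had 4 and 2 UMIs in set 1 and 205 and 12 in set 2, of which 43 and 3 lay in cells without Ptprc. The part of these markers and of Ifng in the result was not tested.

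The Epcam-positive cells of each sample were then ranked on the share of their UMIs in 10 enterocyte markers, none of which is a member. The 3 equal parts, terciles, are ranges of that share and not cell types, and 80, 88, 133 and 209 cells had shares within 10% of a boundary value in wild type and knockout set 1 and wild type and knockout set 2. In the upper against the lower tercile of cells, fitted over the 4 samples with the sample as a block, 29 members rose and 2 fell by edgeR's quasi-likelihood test with Benjamini-Hochberg adjustment. The comparison was broad, since 34.7% of 12417 genes were called higher and 37% lower. The median of the members was 1.01, against -0.05 for all genes. Upper exceeded lower in all 4 samples for 29 genes and in none for Oas2.

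**Figure D4:**
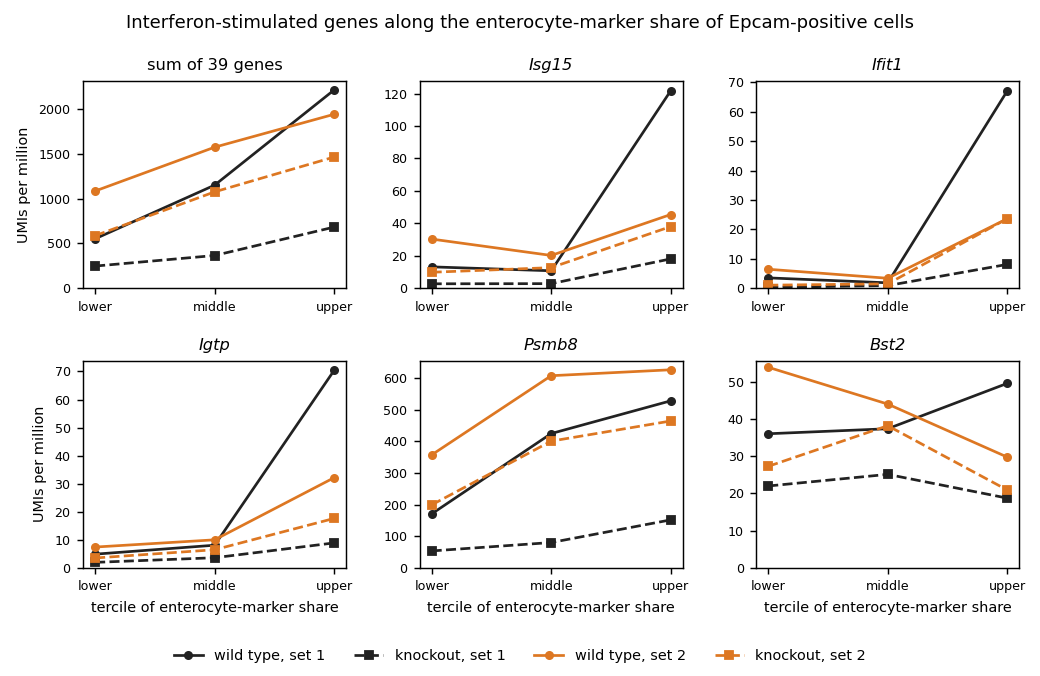
UMIs scaled to CPM in the lower, middle and upper tercile of Epcam-positive cells by enterocyte-marker share, for the sum of the 39 genes and for 5 of them; colour gives the set, solid lines with circles wild type and dashed lines with squares knockout, 1 sample per line. The sum is higher in the upper than in the lower tercile in each sample, Ifit1 and Igtp stand highest in the upper tercile, and Bst2 is lower there than in the lower tercile in 3 of the 4 samples.

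The effector Ifit1 was among the members that rose. It had 3.52 CPM in the lower and 67.0 in the upper tercile in wild type set 1, 0.29 and 8.09 in knockout set 1, 6.45 and 23.6 in wild type set 2, and 1.04 and 23.6 in knockout set 2. The upper tercile was higher in every sample, and the difference was 3.21 (SE 0.38, edgeR adjusted p = 0.000102). Ifit3b (5.07), Ifit3 (4.31), Ubd (4.16) and Ifit1bl1 (3.55) were the members with larger estimates, the first on few UMIs, with at most 5.29 CPM in any tercile. Among GTPases Igtp was at 2.43 (SE 0.22, edgeR adjusted p = 2.62e-05) and Irgm2 at 2.08 (SE 0.27, edgeR adjusted p = 0.000185), while Irgm1, Iigp1, Gbp2, Gbp3 and Gbp7 did not pass the test, at 0.09, -0.71, -0.57, -0.53 and -0.40. Nor did the effectors Ifit2 (-0.66), Oas1a (0.02) and Rsad2 (0.98).

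All 5 antigen processing genes, all 3 sensors and all 4 transcription factors rose. Tap1 was at 1.71 and Tap2, its transporter partner, at 1.74, and Psmb8 at 1.01 with 171, 53.4, 357 and 199 CPM in the lower tercile of wild type and knockout set 1 and wild type and knockout set 2, and 528, 152, 626 and 464 in the upper. Ddx58 was at 1.66, Irf1 at 1.01 and Stat2 at 0.74. Bst2 and Oas2 fell, at -0.53 (SE 0.13, edgeR adjusted p = 0.00733) and -1.24 (SE 0.31, edgeR adjusted p = 0.00658); Bst2 was nonetheless higher in the upper tercile of wild type set 1, at 49.6 against 36.0.

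The same terciles of cells held other differences. T lymphocyte markers summed to between 190 and 288 CPM in the upper tercile and between 241.7 and 2020 in the lower, and Paneth cell markers to between 1477 and 6573 against 90954 and 201900. Median depth was 15168, 14558, 24961 and 17814 UMIs per cell in the upper tercile and 17934, 16687, 20438 and 16508 in the lower. Receptor genes rose with the members, 8 of 9 receptor and kinase genes and all 13 other class I genes being called higher. Cells with a Ptprc UMI and no Epcam UMI held members at 2053 CPM (13 cells) and 1717 CPM (10 cells) in wild type and knockout of set 1, and at 2785 CPM (1015 cells) and 2556 CPM (509 cells) in set 2.

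The knockout was then set against wild type within each tercile, a split added after the other values were seen. The members compared were the 19 of set 1 and the 22 of set 2 that reached 10 CPM over the whole set, the same in each tercile, and wild type values helped to let them in. In set 1 their median was -1.26 in the lower, -1.08 in the middle and -1.80 in the upper tercile, against 0.10, -0.15 and 0.12 for all genes chosen the same way, and all 19 were lower in each. In set 2 it was -0.95, -0.63 and -0.28, against -0.23, -0.03 and -0.12 for all genes, with 22, 22 and 17 of the 22 lower. The members' sum in the upper tercile was 2213 CPM in wild type and 682 in knockout of set 1, and 1941 and 1464 in set 2. With 1 sample per genotype and set, no difference between terciles or sets was tested.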

How the data were processed

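Crypt cell mRNA was deposited as 1 table of normalized counts for 48440 entries in 16 libraries, and the submitters' processing notes name STAR, Salmon, DESeq2 and build mm10 without saying which step each served. The deposited signal values are these normalized counts. Steps worth 1 read gave whole numbers for 77.0 to 83.1% of low values, so reads were not recovered and no count test was run. The 381 entries without a name (0.0338 to 0.0804% of a library) were left out. The authors' single-cell matrices hold UMI counts; Cell Ranger is named in the submitters' processing notes, and the set 2 matrix headers give 3.0.1, per the file headers.

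The 39 genes, the pathway lists and the markers were chosen with earlier results of these data known. Bulk values were tested as log2(value + 1) with limma 3.58.1 (trend) on genes with a mean of at least 10, 2 groups per fit, Benjamini-Hochberg adjusted over all genes at 0.05. Cells with at least 500 genes, 1000 UMIs, under 25% mitochondrial UMIs and an Epcam UMI were summed per sample and tested with edgeR 4.0.16 (DESeq2 1.42.0 as the alternative); no doublet caller was run. Ratios within a set carry exact 95% intervals for counting error only. Fits were run on simulated data (R 4.3.3, Python 3.11.15). The simulated counts were independent, with a fixed spread and no set or run effect, so they cannot show how the fits behave under such effects. Named in full were members that passed a test, the 3 largest differences each way, and in the germ-free comparison 14 genes fixed by name.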

Additional observations from a re-analysis of the deposited data

Results flagged for a closer look

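Among 156 pairs of a gene and a group of 4 mRNA libraries, 8 held a library far from the other 3; chance gives about 1 in 20. Conventionalized replicate 1 stood high for Oasl2 (914 normalized counts, others 489 to 531), Xaf1 (283, others 126 to 131) and Gbp7 (123, others 55.5 to 63.3). Conventionalized replicate 2 stood low for Ifih1 (164, others 190.4 to 195) and high for Ifit2 (49.3, others 24.4 to 25.2). Germ-free replicate 4 was listed at 0 for Ifit1bl1, where the others lay between 58.7 and 111. High fat diet replicate 4 was low for Isg15 (31.2, others 65.8 to 68.6), and chow replicate 2 was high for Parp14 (271.2, others 159 to 167).

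Ifi27 went opposite ways in the 2 single-cell sets, with a log2 ratio of knockout to wild type of -0.84 in set 1 and 0.10 in set 2. The difference between the sets was not tested, since each has 1 sample per genotype.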

How the results depend on the processing

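No recomputed result that had passed its test changed direction. The members called between germ-free and conventionalized mice numbered 2, and 1 with no filter on low values, with median-of-ratios scaling or with quantile normalization (Tap1 lost in each). They numbered 3 with all 4 groups in the fit (Usp18, Irf9 and Bst2), and 0 to 3 when a library was left out. The 3 came without germ-free replicate 2 (Usp18 higher, Tap1 and Bst2 lower). Between high fat diet and chow they numbered 5, 10 with no filter, 3 with all 4 groups in the fit, and 0 to 13 when a library was left out. Settings chosen after seeing the data gave 0 without chow replicates 2 and 4 (median -0.67), 0 for the 4 libraries with the lower codes (median -0.66) and 3 for the 4 with the higher codes (median -1.40). Germ-free against chow had 0 called, 1 with all 4 groups in the fit, and a median of -0.32 without chow replicates 2 and 4. DESeq2 called 1 member in the knockout. Over the members at 10 CPM within a tercile, which differ between terciles, the set 1 median of -1.67 was -0.70 in the lower and -1.04 in the middle tercile. The set 2 median of -0.59 was -0.84 under 10% mitochondrial UMIs, -0.90 in the lower and -0.31 in the upper tercile. Causes were not tested.

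Same-numbered mRNA libraries were not treated as pairs in the main fits, since in no comparison did every same-numbered pair correlate above 0.1. That rule cannot show that libraries share nothing else, and no fit took the 2 runs of library codes alone as a block. High fat and chow libraries of the same run but unlike number correlated at 0.291, -0.095, 0.124 and 0.246. Between runs the values lay between -0.334 and 0.0275. For same-numbered pairs they were 0.152, -0.132, 0.393 and 0.0101 for germ-free and conventionalized mice, 0.0552, 0.155, 0.0731 and 0.225 for high fat diet and chow, -0.0425, -0.347, 0.459 and -0.36 for conventionalized mice and chow, and -0.149, 0.307, 0.423 and 0.00299 for germ-free mice and chow. With the replicate block, 1 member was called between germ-free and conventionalized mice (Tap1 lost), 7 between high fat diet and chow, 0 between conventionalized mice and chow, and 13 between germ-free mice and chow (3 higher and 10 lower, with 1853 of all 19475 genes higher and 1054 lower). In the single cells, the deviations of the set 1 wild type and knockout samples from their genotype means correlated at 0.616. There the set as a block gave 0 members called and a median of -1.12, against -1.001 without it. Depth limits Ifit2, Ifit3b, Iigp1, Gbp2, Gbp3 and Ubd in the single cells.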
